A study of Mus musculus with 12 samples.

Results

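The genes described here carry the cyclic AMP (cAMP) signal through protein kinase A (PKA) in mouse skeletal muscle. They are Adcy6, Adcy9, Prkaca, Prkacb, Prkar1a, Prkar2a, Pde4b, Pde4d and Crem, 9 symbols taken by name from the deposited expression tables. Because 2 gene identifiers carry the symbol Pde4d, they fill 10 of the 15344 rows, and all 10 rows passed the filter on low values in every comparison. Quadriceps RNA was sequenced from 12 mice of 6 months of age, 4 in each of 3 groups. WT mice were untreated C57BL/6 animals. KO mice carried the GAA knock-out on a C57BL/6 background and were injected with PBS. AAV mice carried the same knock-out and received AAV2/8-LSPhGAApA, a vector that expresses human acid alpha-glucosidase (hGAA) from a liver-specific promoter, at 2e12 vg/kg through the tail vein at 2 months of age. The KO and AAV groups therefore share the knock-out and differ in the injection, and the methods state that the injected KO mice were male.

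Adenylyl cyclases make cAMP from ATP when a receptor such as the beta-adrenergic receptor activates the stimulatory G protein. Without cAMP, PKA is a complex of catalytic subunits held inactive by regulatory subunits, and cAMP binding to the regulatory subunits frees the kinase. Phosphodiesterases of the PDE4 family break cAMP down again, and the kinase reaches the nucleus, where it acts on CREB and its relative CREM. In skeletal muscle this pathway is known for switching on glycogen breakdown through phosphorylase kinase, the process that lies outside the lysosome, whereas GAA, the enzyme that is deficient in Pompe disease, breaks glycogen down inside it.

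The targeted gene went against the labels, so groups are named below by their labels only. GAA activity and glycogen, which the study also assayed in these muscles, were not analysed here. Gaa had normalized counts (read counts divided by 1 size factor for each library) of 342.9, 14640.2, 323.8 and 460.3 in the libraries labelled WT 1 to 4. The libraries labelled KO 1 to 4 held 12151, 13074.5, 11936.2 and 12895, and those labelled AAV 1 to 4 held 946.8, 587, 499.6 and 9854.3. Gaa was thus high in every library labelled KO, in WT 2 and in AAV 4, and low in the others. Counted reads lay between 32299356 and 47379737 in the libraries labelled WT, 31225360 and 40846896 in KO, and 22122233 and 31974197 in AAV. The skeletal muscle markers (10 of 10 in the tables) summed to between 4405547 and 7083227 normalized counts in each library, which matches the labelled tissue. In whole muscle, fewer cells of a type and less RNA per cell cannot be told apart.

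The genes lie on different chromosomes. On GRCm38 with GENCODE M21, all of the following are protein coding: Adcy6 (ENSMUSG00000022994) on chromosome 15 from 98589973 to 98610076, minus strand, and Adcy9 (ENSMUSG00000005580) on chromosome 16 from 4287529 to 4420498, minus strand. Prkaca (ENSMUSG00000005469) lies on chromosome 8 from 83972993 to 83996443, plus strand, and Prkacb (ENSMUSG00000005034) on chromosome 3 from 146729574 to 146812990, minus strand. Prkar1a (ENSMUSG00000020612) lies on chromosome 11 from 109649405 to 109669656 and Prkar2a (ENSMUSG00000032601) on chromosome 9 from 108689314 to 108750436, both on the plus strand. Pde4b (ENSMUSG00000028525) lies on chromosome 4 from 102087543 to 102607259 and Pde4d (ENSMUSG00000021699) on chromosome 13 from 108449948 to 109953461, both on the plus strand. The other Pde4d row (ENSMUSG00000074661) has an identifier that is not in this annotation, and Crem is ENSMUSG00000063889. All values are counts over whole genes, so splice forms and alternative promoters of a gene were not separated.

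CREB and CREM bind the cAMP response element (CRE), whose full form is TGACGTCA and whose core is TGACG, or CGTCA on the other strand. Promoter windows of 300 bases from RefSeq on GRCm38.p6 (250 before and 50 after a start) were searched for these letters on both strands. There were 18 windows for 7 of the genes, some of them overlapping. The core was found in 8 of the 18 windows, against 20.8% of all 32851 windows. The full CRE was found in 2 overlapping windows, both of Prkar1a, against 1.79% of all windows. The stretches below, of 30 bases each and upstream of a start, show where the genes of each role carry the letters, with the core or full element in capitals. A full CRE holds the core on both strands. A match describes the letters only, and which start the muscle used is not known from these counts.
Prkar1a, full CRE, chr11:109650889-109650918, plus strand: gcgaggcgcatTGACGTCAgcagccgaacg
Prkacb, core, chr3:146813032-146813061, minus strand: gggggcttgaccgCGTCActtccggcgcgc
Prkaca, core, chr8:83972845-83972874, plus strand: agtctgcaactcgCGTCActcatccaggag
Adcy9, core, chr16:4420506-4420535, minus strand: ccggacccggcggTGACGtgcgcgggccgc
Pde4b, core, chr4:102421508-102421537, plus strand: tgatttggctgcaCGTCAattttctcatct

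Between the libraries labelled KO and WT, the catalytic subunit gene Prkacb and the phosphodiesterase genes Pde4b and Pde4d were higher in KO, and Prkar1a and Crem were lower. In all, 6 of the 10 rows were called (4 higher and 2 lower) by limma at a Benjamini-Hochberg adjusted p under 0.05, where 27.6% of all 14859 genes tested were called (12.3% higher and 15.3% lower). The median log2 fold change of the 10 rows was 0.58, against 0.02 over all genes tested. In 5 rows the 4 KO and 4 WT values did not overlap (2 higher and 3 lower), against 28.3% of all genes (13.3% higher and 15.1% lower). Between AAV and KO, 7 of the 10 rows were called (2 higher and 5 lower), where 26.3% of 14894 genes were called (12.8% higher and 13.4% lower). Their median was -0.79, against 0.04 over all genes, and in 7 rows the groups did not overlap (3 higher and 4 lower), against 30.6% of genes (14.8% higher and 15.8% lower). Between AAV and WT only Adcy6 was called of the 10 rows, where 1.29% of 14939 genes were called (0.951% higher and 0.341% lower). It was also the only row without overlap, against 11.7% of genes (6.69% higher and 4.97% lower). These comparisons share libraries, KO in the first pair and WT or AAV in the others, so their values are set side by side and are not independent. Exact two-sided permutation tests over 4 against 4 libraries cannot go below p = 0.0286, which became 0.0659 after Benjamini-Hochberg adjustment over the 30 tests of rows and comparisons made here, so no row passed that test.

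**Figure D1:**
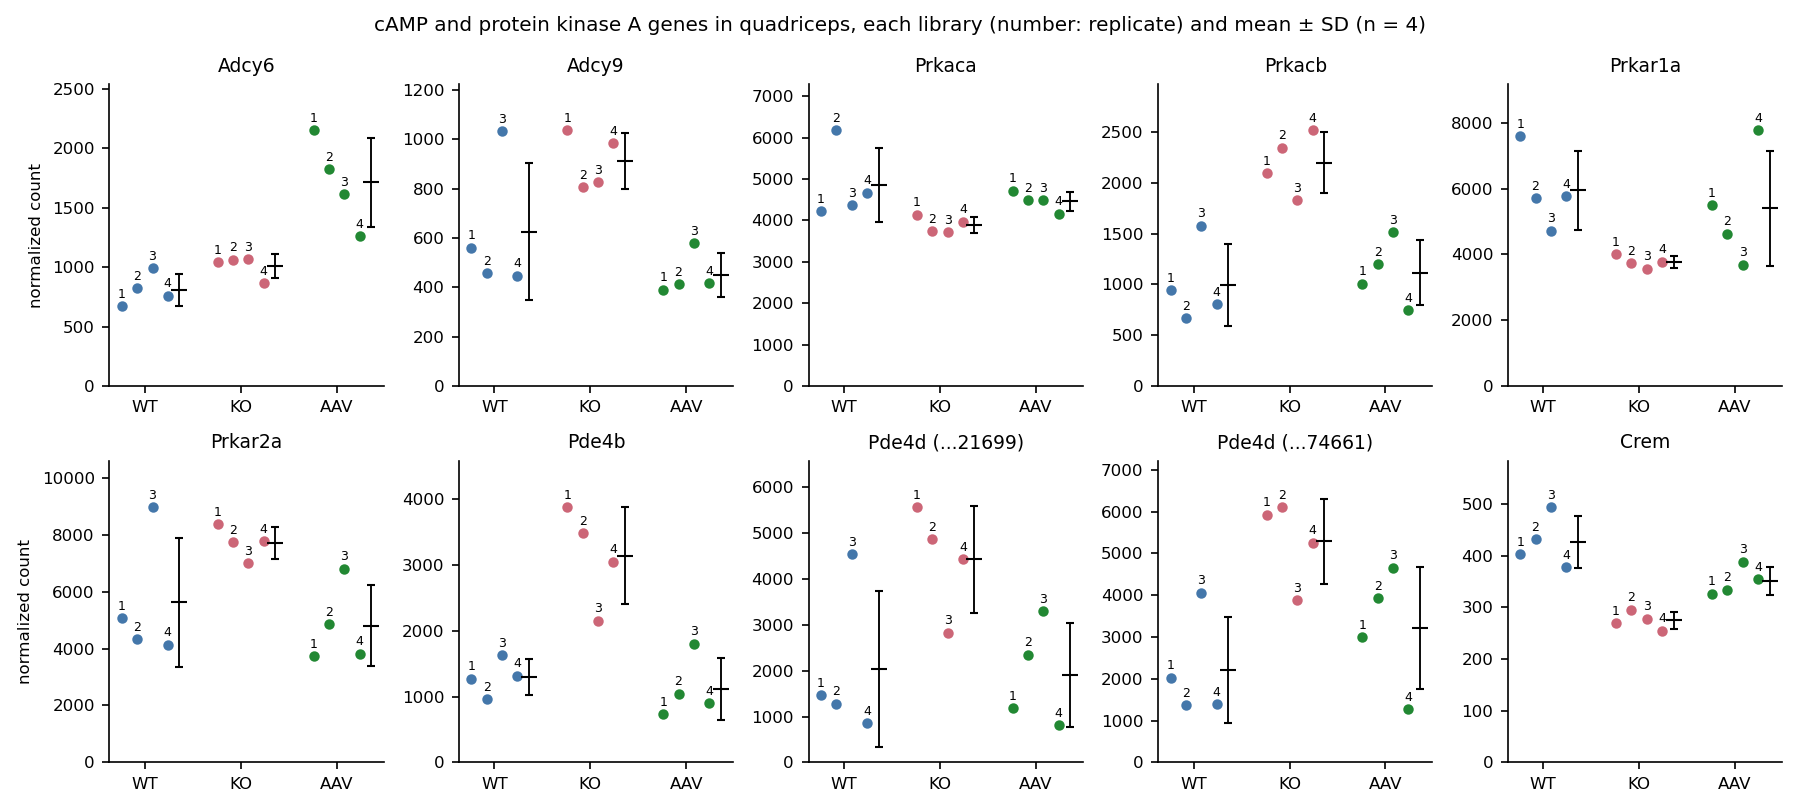
Normalized counts of the 10 rows in each library (points, numbered by replicate) of the groups labelled WT, KO and AAV, with the mean ± SD of 4 libraries beside each group. The 4 KO points of Prkacb and Pde4b lie above all WT and AAV points, those of Crem lie below all WT and AAV points, and Adcy6 is highest in the 4 AAV libraries.

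The cyclase gene Adcy6, whose enzyme is inhibited by calcium, was highest in the libraries labelled AAV. Its normalized counts were 669.6, 826, 989 and 761 in WT 1 to 4, 1044, 1063, 1070.3 and 863 in KO 1 to 4, and 2151, 1828, 1616 and 1259 in AAV 1 to 4. Every AAV value lay above every KO and WT value, while KO and WT overlapped through KO 4 and WT 3. AAV exceeded KO by 1.67-fold (log2 fold change 0.74 ± 0.16 SE, limma with Benjamini-Hochberg adjusted p = 0.0125) and WT by 2.09-fold (1.07 ± 0.19, adjusted p = 0.0400). Between KO and WT the log2 fold change was 0.32 ± 0.15 (limma, Benjamini-Hochberg adjusted p = 0.117), which did not pass. The AAV to WT call is the less firm one: it was lost in 9 of 20 alternatives, among them without AAV replicate 2 (Benjamini-Hochberg adjusted p = 0.140), while the log2 fold change stayed between 0.95 and 1.22.

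Adcy9, a broadly expressed cyclase that responds weakly to forskolin, took the opposite course and was lowest in AAV. It had 561, 458, 1034 and 448 normalized counts in WT 1 to 4, 1036, 805, 827 and 984 in KO, and 390.0, 413, 579.9 and 417 in AAV. All 4 AAV values lay below all 4 KO values, and 3 of the 4 WT values did too, but WT 3 was as high as the highest KO library. AAV was 2.04-fold below KO (log2 fold change -1.03 ± 0.15, limma, Benjamini-Hochberg adjusted p = 0.00354), a call that held in 19 of 19 alternatives. For KO against WT the log2 fold change was 0.63 ± 0.25 (adjusted p = 0.0846), and without WT replicate 3 it was 0.90 (adjusted p = 0.000597, limma). Per kb of exonic length, Adcy6 and Adcy9 stood at similar levels in WT, 120 ± 19.9 and 120 ± 53.4 normalized counts per kb (SD, n = 4).

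Of the catalytic subunit genes, Prkaca was by far the more abundant, and only Prkacb was called. Prkaca had 4218, 6175, 4367 and 4674 normalized counts in WT 1 to 4, 4137, 3734, 3721 and 3974 in KO, and 4720.4, 4491, 4493 and 4161 in AAV. The KO values lay below all WT and all AAV values, by small margins. The log2 fold change was -0.30 ± 0.14 between KO and WT (limma, Benjamini-Hochberg adjusted p = 0.118) and 0.20 ± 0.09 between AAV and KO (adjusted p = 0.136). Neither passed, though with libraries scaled by total reads Prkaca was called between AAV and KO (log2 fold change 0.36, adjusted p = 0.0285), a scaling that moved the median log2 fold change of all genes in that comparison from 0.04 to 0.20.

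Prkacb, which encodes the beta form of the same catalytic subunit, had 941, 669, 1578 and 803 normalized counts in WT 1 to 4. It had 2096, 2347, 1832 and 2517 in KO 1 to 4 and 1006, 1199, 1514 and 749.8 in AAV 1 to 4. The KO values lay above all others, and WT and AAV covered the same range. KO was 2.31-fold above WT (log2 fold change 1.21 ± 0.24, limma, Benjamini-Hochberg adjusted p = 0.00739) and AAV was 2.02-fold below KO (-1.01 ± 0.20, adjusted p = 0.00882). Both calls held in 19 of 19 alternatives. The AAV to WT log2 fold change was 0.20 with a 95% interval from -0.45 to 0.84, so a difference of the size seen against KO lay outside the interval.

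Set on one scale by length, Prkaca had 1953 ± 361 normalized counts per kb in WT and Prkacb 114 ± 45.9. The share of Prkacb in their sum per kb was 5.95%, 2.98%, 9.29% and 4.64% in WT 1 to 4. It was 12.6%, 15.1%, 12.3% and 15.2% in KO 1 to 4 and 5.70%, 7.04%, 8.72% and 4.86% in AAV 1 to 4. The beta form thus made up a larger part of the catalytic transcripts in every library labelled KO than in any other library, on average 13.8% ± 1.61 (SD, n = 4). These are shares of RNA, and subunit protein was not measured here.

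Of the regulatory subunit genes, Prkar1a was called between KO and WT and Prkar2a between AAV and KO. Prkar1a, which encodes the type I regulatory subunit RI-alpha, had 7602, 5721, 4725 and 5771 normalized counts in WT 1 to 4, 4017, 3733, 3567 and 3783 in KO, and 5507, 4638, 3689 and 7775 in AAV. All KO values lay below all WT values, and AAV spread from within the KO range (AAV 3) to above the highest WT library (AAV 4). KO was 1.56-fold below WT (log2 fold change -0.64 ± 0.15, limma, Benjamini-Hochberg adjusted p = 0.0124), in 19 of 19 alternatives. AAV against KO gave 0.46 ± 0.20 (adjusted p = 0.104), which passed without AAV replicate 3 only (adjusted p = 0.0184). Prkar1a is also the gene whose promoter windows held the full CRE.

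Prkar2a encodes RII-alpha, the type II subunit that A-kinase anchoring proteins bind. Its normalized counts were 5058, 4320.2, 8970.1 and 4131 in WT 1 to 4, 8356, 7736, 6988 and 7768 in KO, and 3729, 4847, 6800.2 and 3822 in AAV. Only WT 3 broke the separation of KO from WT, with the highest value of all 12 libraries, and all AAV values lay below all KO values. AAV was 1.65-fold below KO (log2 fold change -0.73 ± 0.18, limma, Benjamini-Hochberg adjusted p = 0.0196), called in 14 of 19 alternatives. The fits that lost it were the one over all 12 libraries and those without KO replicate 1, 2 or 4 or AAV replicate 1, with adjusted p up to 0.0575. KO against WT gave 0.53 ± 0.22 (limma, Benjamini-Hochberg adjusted p = 0.101), and 0.78 without WT replicate 3 (adjusted p = 0.000415).

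The Prkar1a share of the regulatory transcripts was lower in every library labelled KO than in any other library, while WT and AAV overlapped. Prkar1a was 68.2%, 65.6%, 43.3% and 66.8% of the normalized counts per kb of the 4 regulatory subunit genes in WT 1 to 4, and 67.6%, 57.9%, 44.0% and 74.3% in AAV 1 to 4. It was 41.2%, 41.2%, 41.4% and 41.6% in KO 1 to 4, below every other library and with an SD of 0.188 percentage points. WT 3 and AAV 3 came closest to the KO libraries. Prkar2a filled nearly all of the remainder, on average 57.2% ± 1.47 in KO against 38.1% ± 11.8 in WT and 37.9% ± 13.1 in AAV. The Prkar2a shares of KO and WT overlapped, since WT 3 stood at 55.7% and KO 3 at 55.0%, and AAV 3 lay just below at 54.9%. The share of catalytic transcripts among all PKA subunits per kb overlapped in all 3 groups, at 47.5% ± 6.65 in WT, 46.2% ± 0.702 in KO and 48.8% ± 4.53 in AAV.

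**Figure D2:**
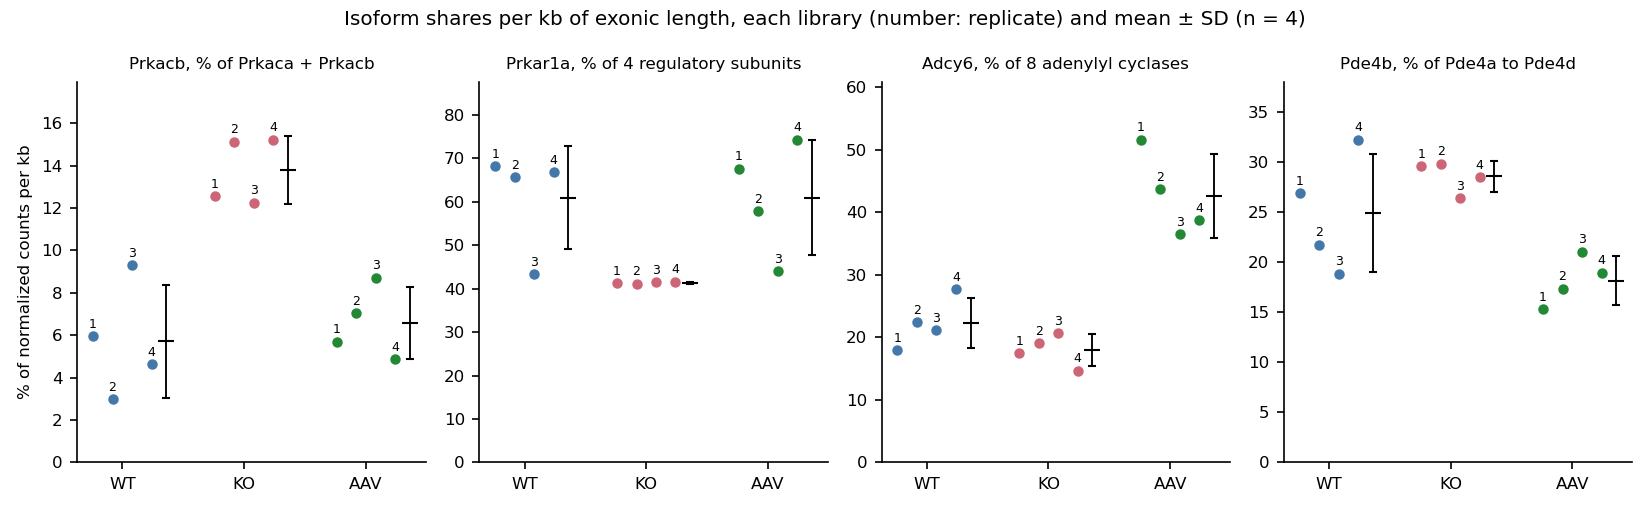
Shares of normalized counts per kb of exonic length within 4 gene families in each library (points, numbered by replicate) of the groups labelled WT, KO and AAV, with the mean ± SD of 4 libraries. Every KO library has a Prkacb share above 12% and a Prkar1a share between 41.2% and 41.6%, and every AAV library has an Adcy6 share above those of all WT and KO libraries, and the PDE4 panel takes Pde4d from ENSMUSG00000021699 only.

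Among the 8 adenylyl cyclase genes in the tables, Adcy6 made up 42.6% ± 6.70 of the normalized counts per kb in AAV (lowest library 36.5%), against 22.3% ± 4.06 in WT (highest 27.7%) and 17.9% ± 2.55 in KO. Adcy9 made up 21.5% ± 5.34, 20.98% ± 1.63 and 14.7% ± 2.54 in WT, KO and AAV. Adcy2, the cyclase with the highest level per kb in WT and KO, made up 45.5% ± 7.83 in WT, 48.5% ± 4.13 in KO and 22.7% ± 5.10 in AAV, with no overlap between AAV and either group. Adcy6 was therefore the leading cyclase transcript in the AAV libraries and Adcy2 in the others. In normalized counts Adcy2 was 1048 ± 259.7 in WT, 1712 ± 237 in KO and 573 ± 183 in AAV, higher in KO than WT (log2 fold change 0.74 ± 0.20, limma, Benjamini-Hochberg adjusted p = 0.0250) and lower in AAV than KO (-1.62 ± 0.21, adjusted p = 0.00193).

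The phosphodiesterase gene Pde4b, whose product degrades cAMP and is a target of rolipram, had the lowest adjusted p of the 10 rows between KO and WT. It had 1272, 964, 1635 and 1318 normalized counts in WT 1 to 4, 3883, 3485, 2157 and 3054 in KO, and 737, 1044, 1805 and 903 in AAV. The lowest KO library (KO 3) lay above the highest WT (WT 3) and AAV (AAV 3) libraries. KO was 2.41-fold above WT (log2 fold change 1.27 ± 0.21, limma, Benjamini-Hochberg adjusted p = 0.00360) and AAV was 2.90-fold below KO (-1.54 ± 0.27, adjusted p = 0.00611), each in 19 of 19 alternatives. Against WT, AAV gave -0.27 with a 95% interval from -0.87 to 0.34.

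Pde4d, a close relative of Pde4b with the same activity, was counted under 2 identifiers. Under ENSMUSG00000021699 the normalized counts were 1460.5, 1279.9, 4548 and 860.2 in WT 1 to 4, 5572, 4876, 2828 and 4435 in KO, and 1177, 2354, 3294 and 808 in AAV. The KO libraries were high apart from KO 3, and WT 3 lay among them, far above the other WT libraries. KO was 2.61-fold above WT (log2 fold change 1.38 ± 0.44, limma, Benjamini-Hochberg adjusted p = 0.0416) and AAV was 2.61-fold below KO (-1.38 ± 0.40, adjusted p = 0.0316). The KO to WT call held in 9 of 19 alternatives. It was lost by edgeR, with the replicate block, in 1 fit of all 12 libraries, with the length correction and without WT replicate 1, 2 or 4 or KO replicate 1, 2 or 4, with adjusted p up to 0.109. The AAV to KO call held in 12 of 19, with adjusted p up to 0.0906, and was lost with the replicate block (0.0595), in 1 fit of all 12 libraries (0.0688), without KO replicate 1, 2 or 4 and without AAV replicate 1 or 4.

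Under the retired identifier ENSMUSG00000074661, Pde4d had 2028, 1371, 4058 and 1386 normalized counts in WT 1 to 4, 5927, 6109, 3875 and 5257 in KO, and 2995, 3929, 4654 and 1277 in AAV. It was higher in KO than WT (log2 fold change 1.39 ± 0.32, limma, Benjamini-Hochberg adjusted p = 0.0128, called in 17 of 17 alternatives). AAV against KO gave -0.85 ± 0.35 (adjusted p = 0.0968), which passed without AAV replicate 3 only. The identifier ENSMUSG00000021699 took between 28.2% and 52.8% of the sum of both rows in the 12 libraries. How reads were divided between these rows is uncertain, so they were also added up, an alternative chosen after seeing the data. The sum was higher in KO than WT (1.38 ± 0.37, adjusted p = 0.0233), and AAV against KO gave -1.06 ± 0.36 (adjusted p = 0.0551, limma, Benjamini-Hochberg).

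Crem, whose products include activators and repressors of CRE-driven transcription, is the only member of the CREB family among these genes. Its level was the lowest per kb, at 72.3 ± 8.54 normalized counts per kb in WT. It had 403, 432, 494 and 377 normalized counts in WT 1 to 4, 269.6, 296, 278 and 255 in KO, and 327, 334, 389 and 354 in AAV. KO lay below both other groups without overlap, and AAV lay between KO and most of WT, overlapping WT through AAV 3 and WT 4. KO was 1.55-fold below WT (log2 fold change -0.63 ± 0.13, limma, Benjamini-Hochberg adjusted p = 0.00936, in 19 of 19 alternatives). AAV was 1.28-fold above KO (0.35 ± 0.12), at an adjusted p of 0.0498 that held in 7 of 19 alternatives and not when any of the 8 libraries was left out. Against WT the AAV value was -0.28, with a 95% interval from -0.60 to 0.05.

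**Figure D3:**
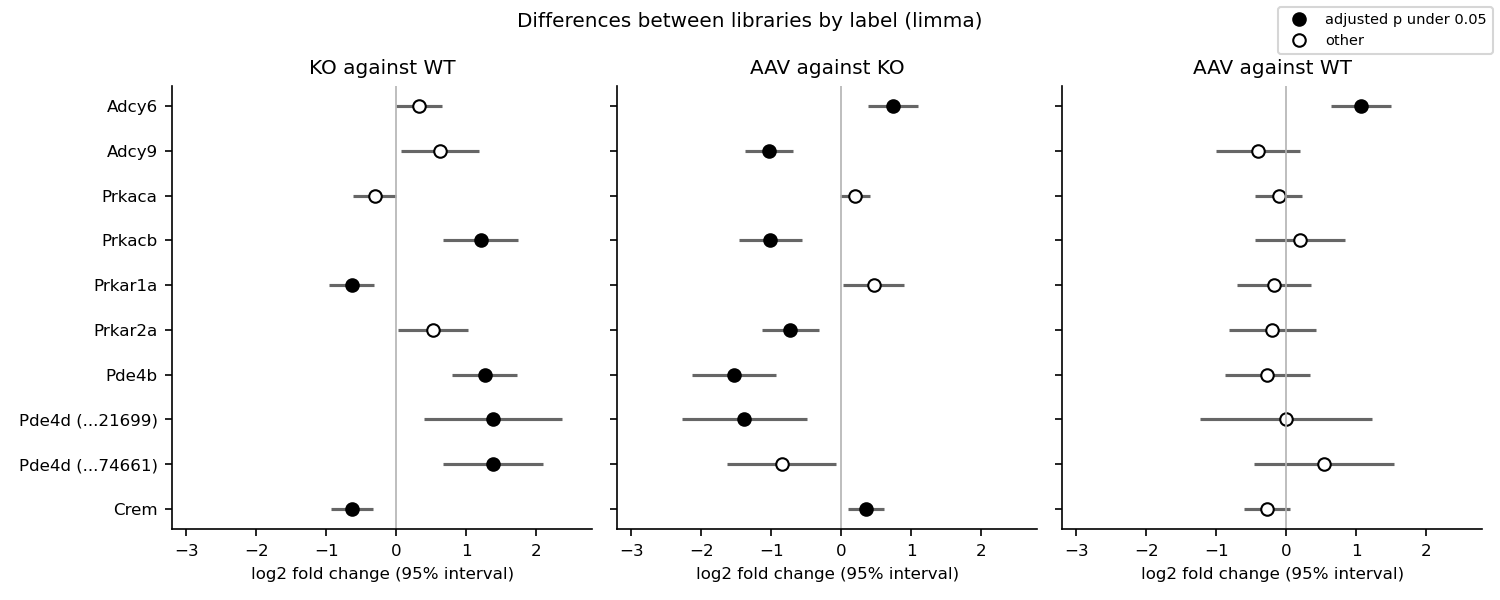
Log2 fold changes of the 10 rows with 95% intervals (lines) from limma for KO against WT, AAV against KO and AAV against WT, with filled points for a Benjamini-Hochberg adjusted p under 0.05. Filled points number 6, 7 and 1 in the 3 panels, and Adcy6 is the only filled point in the last.

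Within a group, the same few animals stood at the ends of the range in many rows. WT 3 was the highest WT library in 8 of the 10 rows and the lowest in Prkar1a. AAV 3 was the highest AAV library in 7 rows and the lowest in Prkar1a, and KO 3 was the lowest KO library in 7 rows. The coefficient of variation was smaller in KO than in WT for every row but Pde4b, and was 4.92% for Prkar1a, 5.16% for Prkaca and 7.27% for Prkar2a in KO, against 20.1%, 18.5% and 40.4% in WT. Without WT replicate 3, limma called 9 of the 10 rows between KO and WT and 7160 genes in all, against 6 rows and 4097 genes with it. The rows gained were Adcy6, Adcy9 and Prkar2a.

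The libraries whose Gaa level differed from the rest of their group were also left out. Without WT replicate 2, KO against WT had 5 of the 10 rows called by limma, where 17.7% of all genes were called. Pde4d under ENSMUSG00000021699 was lost (limma, Benjamini-Hochberg adjusted p = 0.109). Without AAV replicate 4, AAV against KO had 5 called, where 21.6% of all genes were called. Crem (adjusted p = 0.0738) and the same Pde4d row (adjusted p = 0.0529) were lost. Without both libraries, AAV against WT had 0 called by limma (1 at an unadjusted p under 0.05). There 0.0402% of all genes were called, and Adcy6 had a log2 fold change of 1.22 (limma, Benjamini-Hochberg adjusted p = 0.110).

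The rest of the pathway was followed in 9 lists of genes. Between KO and WT, 25 of 100 listed rows tested were called by limma (16 higher and 9 lower), 25% against the 27.6% of all genes, and between AAV and KO 27 of 101 (12 higher and 15 lower), 26.7% against 26.3%. Between AAV and WT 5 of 101 were called, all higher, 4.95% against 1.29%. That last count moved with single libraries, as did the calls over all genes. It was 1 (0.99%) without WT replicate 1, WT replicate 2 or AAV replicate 2, where 0.254%, 0.234% and 0.12% of all genes were called. Without AAV replicate 1 it was 2 (1.98% against 0.248%), and without WT replicate 4 it was 3 (2.97% against 0.422%). Without AAV replicate 3 or 4 it was 4 (3.96%), against 0.368% and 0.489%. Without WT replicate 3 it was 7 (6.93% against 2.93%), with 6 higher and 1 lower. It was 0 by limma without both WT replicate 2 and AAV replicate 4 (18 at an unadjusted p under 0.05). There 0.0402% of all genes were called. With all libraries edgeR called 5, and DESeq2 called 11 (7 higher and 4 lower, where it called 6.26% of all genes). Leaving out single libraries gave 18 to 43 calls between KO and WT. They were 18 without KO replicate 4, where 17.4% of all genes were called, and 43 without WT replicate 3, where 48.2% were. Between AAV and KO it gave 11 to 41 calls. They were 11 without KO replicate 4 (10.9% against 13.2% of all genes) and 13 without AAV replicate 1 (12.9% against 14.8%). Without KO replicate 1 or 2 they were 16 (15.8% against 13.5% and 14.3%), and without AAV replicate 3 they were 41 (40.6% against 34%). The pathway as a whole was therefore called about as often as other genes in the comparisons with KO. The counts of single lists are small and moved with single libraries, as did the share called over all genes. That share went from 15.8% to 48.2% between KO and WT and from 13.2% to 34% between AAV and KO. When each library was left out in turn, the calls between KO and WT went from 1 to 7 for receptors and G proteins, 3 to 7 for the other phosphodiesterases, 0 to 3 for CREB factors and coactivators and 4 to 11 for PKA targets, and the highest count of each came without WT replicate 3. Between AAV and KO they went from 0 to 7 for A-kinase anchoring proteins (7 without AAV replicate 3, and 0 with 4 to 6 at an unadjusted p under 0.05 without KO replicate 1, 2 or 4 or AAV replicate 1 or 2, limma), 2 to 6 for the other phosphodiesterases and 2 to 9 for PKA targets.

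Among receptors and G proteins, 1 of 17 was higher and 1 lower in KO than WT, with a list median of 0.14 on the log2 scale. Gnai2, the inhibitory G protein subunit that restrains adenylyl cyclase, was 3608 ± 778 normalized counts in WT, 2136 ± 40.2 in KO and 3533 ± 731 in AAV, lower in KO than WT (log2 fold change -0.73 ± 0.17, limma, Benjamini-Hochberg adjusted p = 0.0123) and higher in AAV than KO (0.70 ± 0.14, adjusted p = 0.00989). Ptger4, a prostaglandin E2 receptor coupled to the stimulatory G protein, was low throughout, at 26.0 ± 7.02 in WT and 49.3 ± 12.7 in KO (0.90 ± 0.29, adjusted p = 0.0431). This call was lost, and no gene of the list was called higher, without WT replicate 1 or 2 or KO replicate 1, 2 or 3. Without WT replicate 3, 4 of 17 were higher and 3 lower in KO. In AAV against KO, 2 of 18 were higher and 1 lower.

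Of the other adenylyl cyclases, 2 of 6 were higher in KO than WT, with a median of 0.66. Besides Adcy2 this was Adcy4, at 142 ± 43.3 in WT, 299.9 ± 46.1 in KO and 336 ± 8.17 in AAV (KO against WT 1.10 ± 0.21, limma, Benjamini-Hochberg adjusted p = 0.00665). Adcy4 was also higher in AAV than WT (1.28 ± 0.21, adjusted p = 0.0284), a call that was lost in 7 of the 8 fits that left out 1 library, all but the one without WT replicate 3, and without both WT replicate 2 and AAV replicate 4. Adcy2 was the 1 of 6 called between AAV and KO.

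Of the other PKA subunits and inhibitors, 2 of 5 were lower in KO than WT, and 1 was higher and 1 lower in AAV than KO. Pkig, an inhibitor protein that binds free catalytic subunits, was 3856 ± 1138 in WT, 1246 ± 227 in KO and 2733 ± 479.9 in AAV. It was 1.59 lower on the log2 scale in KO than WT (-1.59 ± 0.23, limma, Benjamini-Hochberg adjusted p = 0.00213) and higher in AAV than KO (1.13 ± 0.17, adjusted p = 0.00347). Prkx, a kinase related to the PKA catalytic subunits, was lower in KO than WT (-0.70 ± 0.20, adjusted p = 0.0299). The lower calls of this list fell from 2 to 1 when WT replicate 1 or 4 or any KO replicate was left out. In those fits 15.8% to 19.1% of all genes were called.

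Of 13 A-kinase anchoring proteins, which tether PKA to sites in the cell, 1 was higher and 1 lower in KO than WT, and 1 was higher and 2 lower in AAV than KO. Akap8, a nuclear anchor, was 981 ± 71.7 in WT, 1492 ± 104 in KO and 2120 ± 439 in AAV, higher in KO than WT (0.60 ± 0.11, limma, Benjamini-Hochberg adjusted p = 0.00544), higher in AAV than KO (0.49 ± 0.14, adjusted p = 0.0337) and higher in AAV than WT (1.09 ± 0.16, adjusted p = 0.0212). Its AAV to KO call was lost when any KO replicate or AAV replicate 1 or 2 was left out. The AAV to WT call was lost without WT replicate 1, WT replicate 2 or AAV replicate 2, and without both WT replicate 2 and AAV replicate 4. Akap1, the anchor of the outer mitochondrial membrane, was lower in KO than WT (-0.58 ± 0.14, adjusted p = 0.0168). The list also holds Mypn, which encodes the sarcomere protein myopalladin and is not an anchoring protein. Without it the called genes were the same in number, of 12.

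The other cyclic nucleotide phosphodiesterases had 4 of 15 called between KO and WT, each higher in KO as Pde4b and Pde4d were, with a median of 0.68, and without WT replicate 3 there were 7, all higher. In AAV against KO, 4 of 15 were called higher and 1 lower, while the list median was -0.32. The list also holds Pde4dip, which encodes the scaffold myomegalin and not a phosphodiesterase. Without it 4 of 14 were called between KO and WT (median 0.74), and 4 higher and 1 lower of 14 between AAV and KO (median -0.27). Pde2a, which cyclic GMP stimulates, was 419 ± 68.3 in WT, 824 ± 45.5 in KO and 795 ± 123 in AAV (KO against WT 0.99 ± 0.14, limma, Benjamini-Hochberg adjusted p = 0.00191). Pde4a was 1621 ± 319 in WT, 2571 ± 277 in KO and 1952 ± 386 in AAV (0.68 ± 0.15, adjusted p = 0.0115). Pde4c, the rarest PDE4 gene, was 79.8 ± 9.90 in WT, 174 ± 34.0 in KO and 289.6 ± 60.9 in AAV, and was higher in KO than WT (1.10 ± 0.19, adjusted p = 0.00427), in AAV than KO (0.72 ± 0.20, adjusted p = 0.0284) and in AAV than WT (1.83 ± 0.21, adjusted p = 0.00664).

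Among the PDE4 family per kb, with Pde4d taken from ENSMUSG00000021699, Pde4b was 25.0% ± 5.90 in WT, 28.6% ± 1.56 in KO and 18.2% ± 2.45 in AAV. The AAV libraries lay between 15.3% and 21.1%, below all KO libraries. Pde4d overlapped in all groups, at 29.3% ± 11.8, 35.3% ± 3.21 and 26.2% ± 9.58. With both Pde4d rows added over the length of ENSMUSG00000021699, an alternative chosen after seeing the data, Pde4b was 18.7% ± 4.81 in WT, 20.05% ± 1.07 in KO and 12.6% ± 2.59 in AAV. Its highest AAV library, at 15.3%, was again below the lowest KO library, at 18.6%. Pde4d was then the leading PDE4 transcript on average, at 46.9% ± 10.8, 54.6% ± 2.51 and 48.5% ± 12.2.

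Of 7 other cAMP effectors, 1 was higher and 3 lower in KO than WT, and 2 were higher in AAV than KO. Hcn2, a channel opened with the help of cAMP, was 81.2 ± 25.1 in WT, 25.0 ± 5.69 in KO and 25.8 ± 12.6 in AAV (KO against WT -1.64 ± 0.27, limma, Benjamini-Hochberg adjusted p = 0.00350). The Popeye domain genes Bves and Popdc3, which encode cAMP-binding membrane proteins of muscle, were lower in KO than WT (-0.93 ± 0.17, adjusted p = 0.00497, and -0.58 ± 0.12, adjusted p = 0.00751). In AAV they stood at 1523 ± 214 and 1446 ± 91.2, against 2305 ± 505 and 2061 ± 164 in WT and 1189 ± 56.0 and 1379 ± 127 in KO.

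The CREB factors and coactivators had 0 of 8 called between KO and WT by limma, edgeR and DESeq2, with 4, 3 and 3 at an unadjusted p under 0.05, and 2 of 8 lower in AAV than KO. Without WT replicate 3, limma called 3 of 8, each higher in KO. The coactivator Crebbp, with the highest mean normalized count of the list over the 12 libraries though not in KO, had 1180 ± 229 normalized counts in WT, 1340 ± 212 in KO and 1778 ± 368 in AAV (KO against WT 0.19 ± 0.16, limma, Benjamini-Hochberg adjusted p = 0.397). Of 11 genes known to be induced through CREB, 2 were lower in KO than WT, and 2 were higher and 1 lower in AAV than KO. They were Cited2, a regulator that binds the coactivators CBP and p300, at 968 ± 202 in WT, 559.9 ± 142 in KO and 968 ± 204 in AAV, and the orphan nuclear receptor gene Nr4a3, at 1353 ± 1122, 352 ± 142 and 1221 ± 742. Cited2 gave -0.80 ± 0.21 for KO against WT (limma, Benjamini-Hochberg adjusted p = 0.0207) and 0.80 ± 0.20 for AAV against KO (adjusted p = 0.0201). Nr4a3 gave -1.75 ± 0.47 (adjusted p = 0.0223) and 1.68 ± 0.44 (adjusted p = 0.0231). The lower calls of this list between KO and WT fell to 1 without WT replicate 1 or KO replicate 2, 3 or 4. They rose to 3 without KO replicate 1. Between AAV and KO the higher calls were 0 without KO replicate 4 and 1 without AAV replicate 1. They were 3 without KO replicate 1 or AAV replicate 3 or 4.

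Of the PKA targets in muscle, 18 rows of 17 genes since Hdac4 has 2 identifiers, 7 of 18 were called between KO and WT, each of them higher in KO, and 6 of 18 between AAV and KO, each of them lower in AAV, where 27.6% and 26.3% of all genes were called. No test of the list was made, and the called genes of the other phosphodiesterases and the other cyclases were also all higher in KO than WT. The list medians were 0.55 and -0.40, against 0.02 and 0.04 over all genes. Without WT replicate 3, 11 of 18 were called higher in KO, without WT replicate 2 there were 6, and without AAV replicate 4 there were 4 of 18 lower in AAV. Phka1, the regulatory alpha subunit of phosphorylase kinase in muscle, was 17058 ± 4199 normalized counts in WT, 35124 ± 4963 in KO and 19828 ± 6090 in AAV, higher in KO than WT (1.07 ± 0.20, limma, Benjamini-Hochberg adjusted p = 0.00576) and lower in AAV than KO (-0.86 ± 0.20, adjusted p = 0.0162). Phkg1, its catalytic subunit, was higher in KO than WT (0.78 ± 0.15, adjusted p = 0.00660). Sik2, a kinase that PKA inhibits, was 246 ± 80.7 in WT, 479.7 ± 32.7 in KO and 273 ± 119 in AAV, higher in KO than WT (1.01 ± 0.21, adjusted p = 0.00815) and lower in AAV than KO (-0.90 ± 0.25, adjusted p = 0.0265). The list mixes enzymes that make and break down glycogen with calcium channels and kinases, and glycogen was not analysed here. Of the Hdac4 rows, ENSMUSG00000026313 was called between AAV and KO (-0.49 ± 0.15, limma, Benjamini-Hochberg adjusted p = 0.0357) and ENSMUSG00000073617 was not (-0.29 ± 0.14, adjusted p = 0.143), and how reads were divided between them is uncertain.

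**Figure D4:**
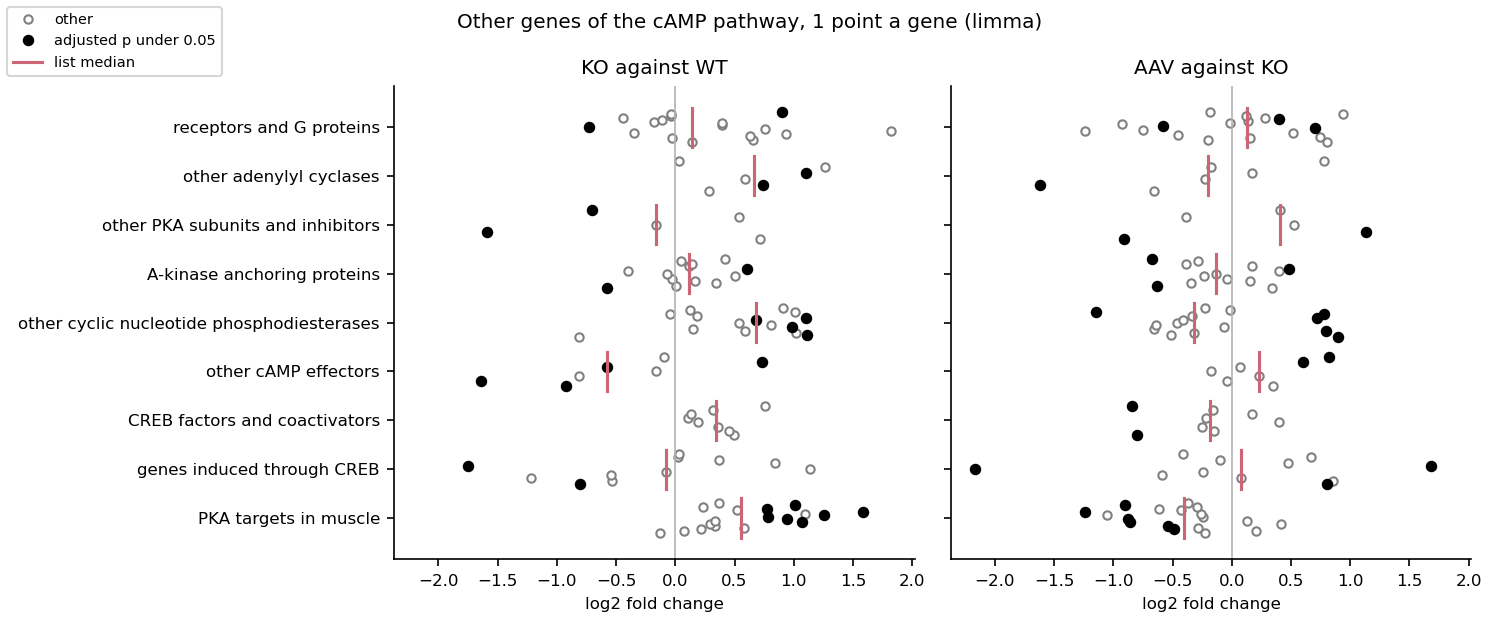
Log2 fold changes of the other genes of the pathway (1 point a row) in 9 lists for KO against WT and AAV against KO by limma, filled where the Benjamini-Hochberg adjusted p was under 0.05, with the list median as a line. The 7 called PKA targets in muscle lie to the right of 0 in the KO to WT panel and the 6 called ones to the left in the AAV to KO panel.

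Some of the markers of fibre type and of other cells also differed between labels. Of the 10 skeletal muscle markers, limma with Benjamini-Hochberg adjustment called Des (-1.03 ± 0.21, adjusted p = 0.00874) and the type IIx myosin gene Myh1 (-1.36 ± 0.34, adjusted p = 0.0182) lower in KO than WT. The type IIb myosin gene Myh4 was higher in KO (0.73 ± 0.24, limma, Benjamini-Hochberg adjusted p = 0.0487). No muscle marker was called higher in KO when any single library other than WT replicate 3 was left out. In AAV against KO, Des (0.72 ± 0.20, adjusted p = 0.0267) and Myh1 (1.09 ± 0.28, adjusted p = 0.0218, limma, Benjamini-Hochberg) were higher. These 2 calls became 1 without any KO replicate and 0 without AAV replicate 1. All 8 markers of the slow fibre list, which includes the type IIa myosin gene Myh2, were lower in KO than WT and 7 of 8 were higher in AAV than KO (limma). Their summed normalized counts lay between 10757 and 52868 in WT, 3354 and 12901 in KO and 17433 and 96908 in AAV, but Myh2 was 63% to 92.7% of the sum. The other 7 markers summed to 3396, 5982, 3836 and 6630 in WT 1 to 4, 1160, 1297, 1112 and 1241 in KO, and 11510, 24410, 7138 and 2934 in AAV, with KO below all other libraries. Endothelial markers were higher in KO than WT for 4 of 7, with sums of 2230 to 5276 in WT, 5190 to 6900 in KO and 4692 to 7091 in AAV. Smooth muscle and pericyte markers were higher in KO for 2 of 6, with sums of 4216 to 11966, 12828 to 15555 and 7409 to 14268. Macrophage markers were lower in KO for 2 of 6 and higher for 1, with sums of 1154 to 3449, 650 to 1184 and 645 to 2850. Between AAV and KO, 1 endothelial marker was higher and 1 lower of 7. Smooth muscle and pericyte markers had 0 of 6 called there by limma, edgeR and DESeq2 (2, 1 and 2 at an unadjusted p under 0.05), and macrophage markers had 0 of 6 by limma (1 at an unadjusted p under 0.05) and 1 higher by edgeR and by DESeq2. Without WT replicate 2 the markers called between KO and WT were 4 of 8 for slow fibres, 2 of 7 for endothelium and 0 of 6 for smooth muscle and pericytes (limma; 2 of these 6 had an unadjusted p under 0.05). Without WT replicate 3, which added 3 calls among the cAMP genes, they were 7 of 8 for slow fibres, 6 of 7 for endothelium, 5 of 6 for smooth muscle and pericytes, 5 of 6 for macrophages and 3 of 6 for Schwann cells. Over all genes, 17.7% were called without WT replicate 2 and 48.2% without WT replicate 3. WT 3 had the highest endothelial and smooth muscle sums of the WT group and the lowest macrophage sum. The part of these cells and fibres in the differences of the cAMP genes was not tested.

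For the remaining marker lists, adipocyte sums lay between 9879 and 40682 in WT, 12492 and 37209 in KO and 17968 and 60375 in AAV, though Lpl and Fabp4, which other cells of muscle also express, were 79.5% to 98.9% of them. The other 6 adipocyte markers summed to 2301, 235, 1093 and 216 in WT 1 to 4, 373, 1125, 7626 and 585 in KO, and 1183, 1575, 1587 and 880 in AAV. KO 3, the lowest KO library in 7 of the 10 rows, was thus far above the others in fat markers. Without KO replicate 3, limma called 6 of the 10 rows between KO and WT and 6 between AAV and KO. Over all genes it called 17.8% and 19.1% there. Fibroblast sums lay between 12904 and 22521, 12766 and 19251 and 10460 and 26788. Schwann cell sums lay between 1185 and 2685, 1744 and 2810 and 1551 and 4175. For lymphocytes only 2 of 7 markers were in the tables, with sums of 41 to 91, 21 to 54 and 27 to 116. The T cell marker Cd3e was at 0 in the lowest KO and AAV libraries.

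Over the 12 libraries, each member was compared with 11071 genes of a mean of at least 50 by Pearson's r on the log2 scale, as a description without a test, since the points share the 3 groups and the same few outlying animals. The closest pattern to Prkacb was that of Ttll7 (r = 0.993), then Sms (0.990), and that of Prkar2a was closest to Ptpn21 (0.992) and Usp24 (0.986). Adcy9 lay closest to Mbd5 (0.977) and Camsap1 (0.974), Pde4b to Grlf1 (0.966) and 1110008L16Rik (0.964), and Adcy6 to Adam15 (0.956) and Kank3 (0.955). The Pde4d row ENSMUSG00000021699 lay closest to Optn (0.979) and Nup153 (0.978), and the row ENSMUSG00000074661 to Zcchc14 (0.985) and Tmpo (0.976). Prkaca lay closest to Cwc15 (0.965) and Nudt9 (0.943), Prkar1a to Pvr (0.956) and Mt4 (0.956), and Crem to Sdhd (0.947) and Arhgap44 (0.937).

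Among the members themselves, Adcy9, Prkacb, Prkar2a, Pde4b and Pde4d varied together over the 12 libraries, with r from 0.703 (Adcy9 and Pde4d, ENSMUSG00000074661) to 0.955 (Prkar2a and Pde4d, ENSMUSG00000021699). Prkar1a ran against them, with r from -0.635 to Adcy9 to -0.853 to Pde4d (ENSMUSG00000074661). Adcy6 stood apart, with r = 0.04 to Prkacb and -0.36 to Adcy9. These values are descriptions over libraries that share groups, and they carry no test.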

How the data were processed

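Quadriceps RNA of 12 mice was analysed. The authors trimmed reads with Trim Galore 0.4.1, kept those of at least 20 nt, mapped them to GRCm38 with STAR, kept single-location reads, counted them per gene with HTSeq 0.6.1 and divided each library by a DESeq2 1.16.1 size factor. The deposited signal is this normalized count, of which 100% of values gave whole reads (tolerance 0.02). The authors' tables also hold log2 fold changes, Wald statistics and p-values of their own comparisons, which were not used. KO values in the 2 tables differed by 0, and 0 columns of samples were left out.

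Groups and replicate numbers came from the titles of the samples; separate litters or days are not given, so p-values measure the spread between these animals. limma 3.58.1 with trend was fitted to log2(value + 1). Genes entered a fit when 1 or more of its 8 libraries reached 10, p-values were adjusted over all of them by Benjamini-Hochberg, and calls were made under 0.05. Fold changes of low genes are understated by the added 1. Alternatives were edgeR 4.0.16 and DESeq2 1.42.0 on recovered reads, scaling, filters of 50 or none, a pseudocount of 0.1, corrections for GC content and length, a replicate block, 1 fit of all libraries and leaving out each library. The scripts were tested on simulated data. R 4.3.3 and Python 3.11.15 were used.

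Levels of different genes were compared per kb of exonic length (GENCODE M21, which held 15186 of 15344 identifiers). Members and lists were chosen with earlier results of these data known. Named genes are the members, Gaa, in each list up to 3 called genes with the lowest adjusted p for KO against WT (or else the most abundant), and the 2 genes most like each member.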

Additional observations from a re-analysis of the deposited data

Results flagged for a closer look

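In each row and group, the highest or lowest library was marked when its gap to the nearest other library took up more of the group's range than Dixon's 95% limit. Of 30 sets of 4 libraries, 3 were marked, and chance marks about 1 in 20. Adcy6 was low in KO 4, at 863 normalized counts, where the other libraries labelled KO lay between 1044 and 1070.3. Adcy9 was high in AAV 3, at 579.9, where the other libraries labelled AAV lay between 390.0 and 417. Pde4d (ENSMUSG00000021699) was high in WT 3, at 4548, where the other libraries labelled WT lay between 860.2 and 1460.5.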

How the results depend on the processing

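Every member kept its direction between KO and WT and between AAV and KO in each alternative run. Those called in all their alternatives were Prkacb, Prkar1a, Pde4b, Crem and the Pde4d row ENSMUSG00000074661 for KO against WT, and Adcy6, Adcy9, Prkacb and Pde4b for AAV against KO. Directions turned between AAV and WT only, in rows not called. There Prkaca had a log2 fold change of -0.11, against 0.046 with scaling by total reads, 0.049 without WT replicate 2 and AAV replicate 4, and -0.17 to 0.015 when single libraries were left out (0.015 without WT replicate 2). Prkar2a had -0.20, and -0.38 to 0.054 when single libraries were left out (0.054 without WT replicate 3). Pde4d (ENSMUSG00000021699) had 0.0032, against -0.085 by edgeR, -0.099 by DESeq2 and -0.12 with the length correction, and between -0.33 and 0.49 when single libraries were left out. The cause was not tested.

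Members called between KO and WT numbered 6, and 4 to 9 over the alternatives. Between AAV and KO they numbered 7, against 4 in 1 fit of all 12 libraries and 4 to 8 when single libraries were left out. Between AAV and WT the 1 call, Adcy6, became 0 with the GC correction (Benjamini-Hochberg adjusted p = 0.0511, limma) and without WT replicate 2 and AAV replicate 4, and was 0 to 1 when single libraries were left out. Genes called numbered 4097 between KO and WT and 2347 to 7160 when single libraries were left out (7160 without WT replicate 3), and 3910 between AAV and KO and 1961 to 5071. Between AAV and WT they numbered 193, against 935 by DESeq2, 320 with scaling by total reads, 127 with no filter, 892 in 1 fit of all 12 libraries, 126 with the length correction, 6 without WT replicate 2 and AAV replicate 4, and 18 to 437 when single libraries were left out. Scaling by total reads moved the share of higher calls from 48.87% to 65.34% between AAV and KO and from 73.58% to 88.75% between AAV and WT, where the median of all genes moved from -0.03 to 0.12.

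The replicate number as a block left 2179 genes called between AAV and KO (5 members) and 0 members between AAV and WT (Adcy6 adjusted p = 0.0541, limma). The numbers come from the sample titles, which give no litter or day. Deviations of same-numbered libraries correlated between -0.46 and 0.64 over the comparisons. Between AAV and WT the values were -0.06, -0.46, 0.64 and 0.56 for replicates 1 to 4. Whether same-numbered libraries share a factor was not tested. With 4 libraries a group, and with Gaa against the labels, a direction by label is a direction between these libraries. Crem, the least abundant member, rested on 237 to 609 reads a library.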
